A study of Mus musculus with 6 samples.

Results

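The 43 genes described here encode the contractile machine of smooth muscle and the channels, receptors, kinases and transcription factors that run it, from the actin and myosin chains to the muscarinic receptors. They were taken as a named list of symbols, chosen with earlier results of these data known. All 43 were found by symbol among the 21374 genes of the deposited table and among the 21281 genes tested. One of them, Mkl2, is listed as Mrtfb in the GENCODE annotation. In smooth muscle, acetylcholine acts on muscarinic receptors, calcium enters through voltage-gated channels or leaves the internal store, and calcium with calmodulin activates myosin light chain kinase, which phosphorylates the regulatory light chain so that myosin pulls on actin. The pull is carried through dense bodies, the desmin network and adhesion plaques to the cell membrane, while cGMP signalling and calcium-activated potassium channels relax the cell. Serum response factor, with its partner myocardin or the related Mkl proteins, binds CArG boxes in DNA and switches on many of these genes; in the colon the cells form the muscularis mucosae, the circular and longitudinal muscle layers and the walls of vessels.

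The data were bulk RNA sequencing of distal colon next to tumours, the tumours themselves having been cut away, from 3 libraries labelled Otud1-/- and 3 labelled wild type. Otud1 encodes a deubiquitinase, an enzyme that takes ubiquitin off other proteins, and the labels give the genotype with no further detail of the allele or of where it acts. All animals were C57BL/6 males labelled as 18 weeks old; both genotypes had been given azoxymethane, a carcinogen, by injection at 6 weeks of age, then 3 cycles of 1.5% dextran sulphate sodium, which injures the colon epithelium, for 4 days followed by water for 14 days, and colon was taken on day 81. No group without this treatment enters the comparison, so every level given here is that of treated colon. Nothing in the labels ties a library to an animal of its own, and the p-values then reflect variation among 6 libraries, part of which may be technical.

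Values are normalised read counts, the reads of a gene divided by the size factor of its library. Libraries held 15300937 to 18193462 recovered reads in those labelled Otud1-/- and 18002560 to 19406407 in those labelled wild type. Otud1 itself read 141, 150 and 208 in the libraries labelled Otud1-/-, against 111, 45.1 and 48.9 in those labelled wild type, so its reads went against the genotype labels (log2 change 1.37 ± 0.35 SE, limma, adjusted p = 0.0934; exact two-sided permutation p = 0.1, the smallest that 3 against 3 libraries allow). The table has 1 value per gene and does not show which part of Otud1 the reads came from. Genotypes are therefore named by label throughout: values under Otud1-/- or under wild type are those of the libraries that carry that label, in the order 1, 2 and 3, and each direction is that of the libraries labelled Otud1-/- relative to those labelled wild type.

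The CArG box ties these genes to their regulator Srf, and the start regions that hold one are shown here because most of them belong to genes that depart from the rest of the list. Windows of 300 bases (250 before the start of transcription and 50 after it; RefSeq, GRCm38.p6) were matched for 36 of the 43 genes and searched for the exact CArG box, whose pattern is the same on both strands. Actg2, Cacna1h, Itpr1, Myh11, Myocd, Nexn and Tagln were not matched. A box was present in 6 of the 36 genes (16.7%), and in 1.81% of the 27025 genes of the RefSeq table. The 6 were Srf, Cnn2, Vcl, Myl6, Myl9 and Ldb3. For 5 of them the window is printed 5′ to 3′ on the strand of the gene, with the box in capitals.

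Srf, at chr17:46556113-46556412 on the minus strand, has a pair of boxes that begin 82 and 62 bases before the start.
Srf: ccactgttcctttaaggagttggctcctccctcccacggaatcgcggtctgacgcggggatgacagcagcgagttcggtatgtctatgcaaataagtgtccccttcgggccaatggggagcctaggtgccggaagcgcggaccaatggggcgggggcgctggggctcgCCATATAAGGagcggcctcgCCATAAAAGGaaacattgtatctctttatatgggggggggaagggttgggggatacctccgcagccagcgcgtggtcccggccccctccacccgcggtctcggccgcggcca
Cnn2, at chr10:79988350-79988649 on the plus strand, has 1 box that begins 56 bases before the start.
Cnn2: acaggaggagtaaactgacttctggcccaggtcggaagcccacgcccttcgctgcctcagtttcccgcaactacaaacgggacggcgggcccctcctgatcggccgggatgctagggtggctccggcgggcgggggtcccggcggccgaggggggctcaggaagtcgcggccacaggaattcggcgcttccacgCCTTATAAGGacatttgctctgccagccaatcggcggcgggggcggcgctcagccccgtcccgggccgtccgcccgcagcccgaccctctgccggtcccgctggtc
Vcl, at chr14:20929148-20929447 on the plus strand, has 1 box that begins 227 bases before the start.
Vcl: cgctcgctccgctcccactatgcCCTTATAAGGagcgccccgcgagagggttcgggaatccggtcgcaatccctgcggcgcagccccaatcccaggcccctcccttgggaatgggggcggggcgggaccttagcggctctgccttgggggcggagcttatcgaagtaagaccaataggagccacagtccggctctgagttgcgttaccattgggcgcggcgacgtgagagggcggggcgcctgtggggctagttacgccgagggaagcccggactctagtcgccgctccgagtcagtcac
Myl6, at chr10:128492960-128493259 on the minus strand, has 1 box that begins 50 bases before the start.
Myl6: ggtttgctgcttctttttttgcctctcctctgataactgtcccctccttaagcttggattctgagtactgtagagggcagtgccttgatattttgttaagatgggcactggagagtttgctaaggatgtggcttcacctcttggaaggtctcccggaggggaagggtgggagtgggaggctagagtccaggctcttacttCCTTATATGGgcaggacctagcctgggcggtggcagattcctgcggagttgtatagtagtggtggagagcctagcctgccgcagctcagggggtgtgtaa
Myl9, at chr2:156775214-156775513 on the plus strand, has 1 box that begins 161 bases before the start.
Myl9: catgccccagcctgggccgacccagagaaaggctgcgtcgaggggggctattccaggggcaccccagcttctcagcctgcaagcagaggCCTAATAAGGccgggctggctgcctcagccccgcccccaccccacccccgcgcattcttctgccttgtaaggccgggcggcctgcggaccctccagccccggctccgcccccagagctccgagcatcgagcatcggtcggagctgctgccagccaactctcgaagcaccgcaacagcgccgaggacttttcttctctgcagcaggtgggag

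A match is a description of letters and not of a bound site, and no match says only that the exact box is not in that window. Among the 6 genes with a box, log2 changes between the labels ran from -0.29 to 1.24 with a median of -0.04, and Myl9 alone was called. Among the 30 matched genes without one they ran from 0.16 to 1.80 with a median of 0.90, and 5 were called. These are counts over a list, with no test of the difference, and the windows were picked for display after this outcome was seen. The 7 unmatched genes, the called Myh11 among them, enter neither part. Myl6 is counted as having a box, although its other window, at chr10:128493837-128494136, has 0.

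Most of the smooth muscle genes were higher in the libraries labelled Otud1-/-. Of the 43 genes, 7 were called (limma, Benjamini-Hochberg adjusted p under 0.05 over all 21281 genes), and all 7 rose: Tpm2, Chrm2, Myl9, Synm, Flna, Cald1 and Myh11. Over all genes 0.282% were called higher and 0.667% lower. The log2 change was positive in 40 of 43 genes, beside 51.7% of all genes, and its median was 0.88, a 1.84-fold difference on the scale of normalised reads plus 1, beside 0.02 for all genes. In 30 of 43 genes every library labelled Otud1-/- lay above every library labelled wild type, beside 13.0% of all genes, and in 0 of 43 every one lay below, beside 13.3%. Another 24 genes besides the called ones had an unadjusted p under 0.05 (limma), making 31 in all, all of them higher. Over all genes 4143 of 21281 had one, 2021 of them higher. In bulk tissue more smooth muscle cells and more RNA of these genes per cell cannot be told apart.

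Which of the 43 genes passed the threshold depended on single libraries, while the direction of the list did not. Leaving out the library labelled wild type 1, 2 or 3 left 0 calls each time, beside 35, 11 and 10 of all genes. At an unadjusted p under 0.05 (limma) were 28, 28 and 26 of the 43, beside 2849, 3572 and 3244 of all genes. Leaving out Otud1-/- 3 gave 1 call (Pdlim7, not among the 7), and leaving out Otud1-/- 2 gave 6 (4 of the 7, with Actg2 and Csrp1). Leaving out Otud1-/- 1 gave 21. Over all genes, leaving out Otud1-/- 3, 2 or 1 gave 116, 351 and 334 calls. The median change of the 43 genes stayed between 0.71 and 1.05 in these 6 fits. On the recovered reads, edgeR with TMM scaling called 3 of the 43 (Chrm2, Synm and Tpm2), edgeR with median-of-ratios scaling 2 (Synm and Tpm2) and DESeq2 26. All these called genes of the 43 were higher. Over all 21281 genes the same 3 fits called 102, 101 and 1420.

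Markers of other tissue layers moved with the same labels. The summed normalised reads of the 5 defining smooth muscle markers (Myh11, Acta2, Actg2, Des and Cnn1, all of them among the 43) ran from 48950 to 103596 in the libraries labelled Otud1-/- and from 29578 to 32508 in those labelled wild type. Of 15 epithelial markers 14 had negative changes with the deposited scaling, 9 with no overlap between the labels and 0 called (limma; 10 at an unadjusted p under 0.05), and their sum ran from 309336 to 468692 under Otud1-/- and from 498852 to 589040 under wild type. The 6 leukocyte markers were all negative, with 0 called (limma; 3 at an unadjusted p under 0.05) and sums of 5844 to 7549 under Otud1-/- and 9020 to 15896 under wild type. Sums of 9 markers of pericytes and vascular smooth muscle were 4341 to 6438 under Otud1-/- and 2474 to 3148 under wild type. Of these 9, 7 had positive changes, 3 did not overlap between the labels (Rgs5, Cspg4 and Mcam) and limma called Mcam; Rgs5 had the most reads, with 2346 to 3512 under Otud1-/- and 830 to 1489 under wild type. Enteric neuron and glia markers (12 genes) summed to 2319 to 2786 under Otud1-/- and 1586 to 2051 under wild type. Limma called 0 of them, with 3 at an unadjusted p under 0.05, beside 4143 of the 21281 genes tested. Overlapping ranges were seen for fibroblasts (12987 to 18097 under Otud1-/- and 13939 to 16998 under wild type) and for interstitial cells of Cajal (3402 to 4508 under Otud1-/- and 3402 to 3775 under wild type). Most of the Cajal cell sum was Ano1 (change 0.05). Kit (0.27) and Etv1 (0.42) had fewer reads, and of these 3 markers Etv1 alone did not overlap between the labels. Limma called 0 of the 3, with 0 at an unadjusted p under 0.05. Of 11 striated muscle markers 4 (Myh1, Myh4, Tnnc2 and Pvalb) gave no value here, and the sum of the other 7 was 280 to 450 under Otud1-/- and 159 to 175 under wild type, with Ckm called. That is 0.375% to 0.676% of the smooth muscle sum under Otud1-/- and 0.532% to 0.553% under wild type. The part of tissue composition in the changes of the 43 genes was not tested.

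**Figure D1:**
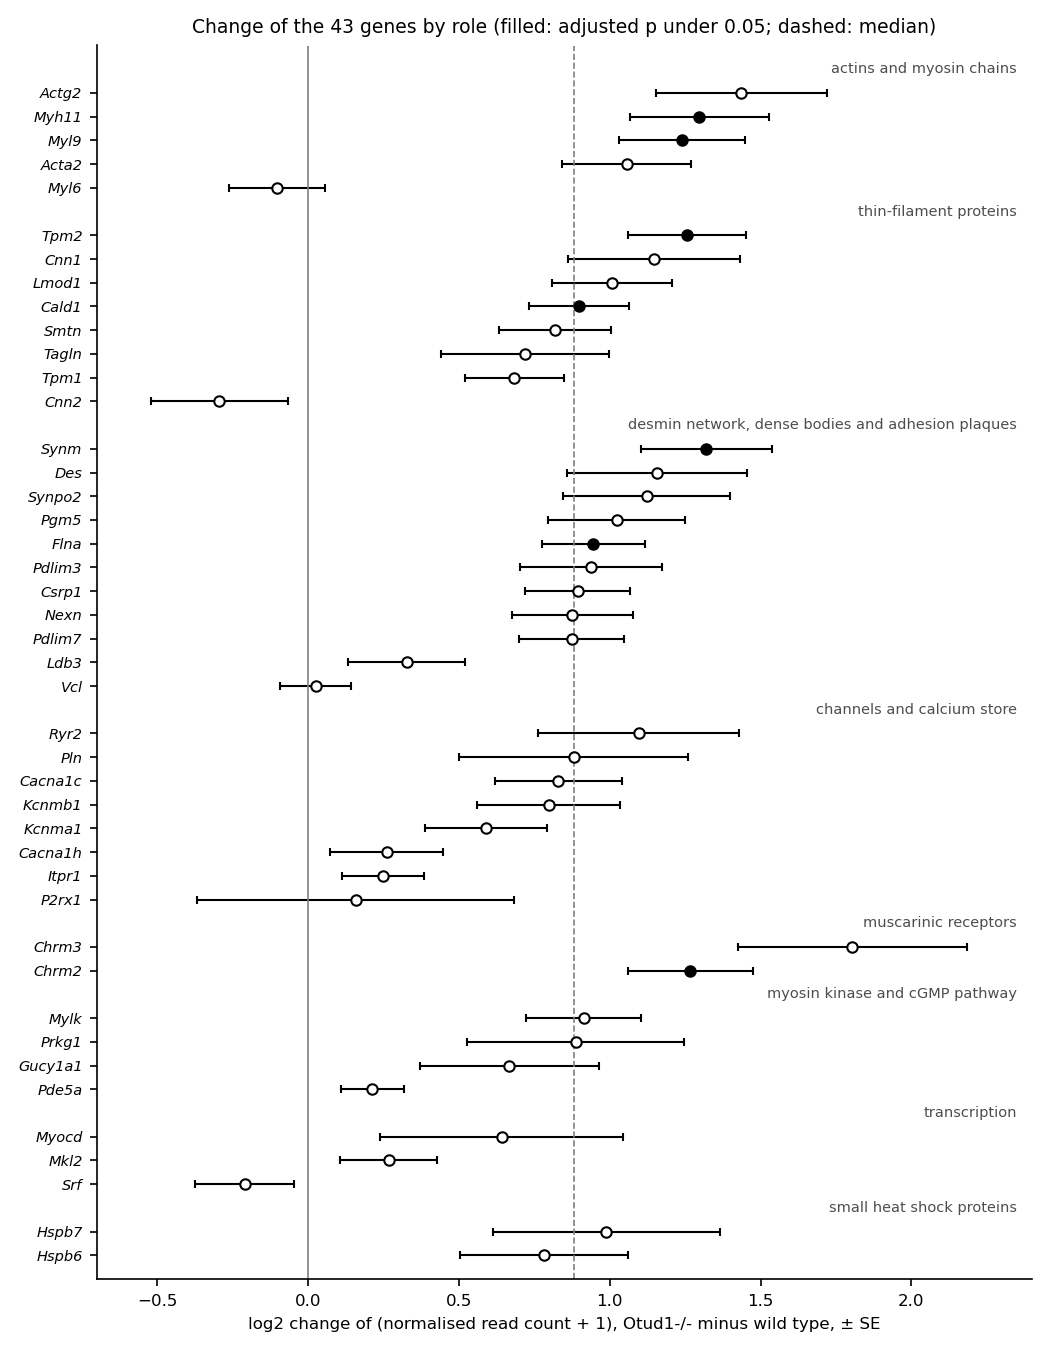
Log2 change of the normalised read count plus 1, libraries labelled Otud1-/- minus libraries labelled wild type, for each of the 43 genes, with limma's SE as bars (n = 3 libraries per label), grouped by role; filled points had an adjusted p under 0.05 and the dashed line is the median of 0.88. All but 3 genes (Cnn2, Srf and Myl6) lie right of 0, and the 7 filled points lie between 0.90 and 1.32.

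Among the actins and myosin chains 4 of 5 genes separated the labels, 2 of them called, and the light chain Myl6 did not follow. Myh11 (ENSMUSG00000018830.8, chr16:14194535-14291372, minus strand), the smooth muscle myosin heavy chain, had 13355, 23866 and 21179 normalised reads in the libraries labelled Otud1-/- 1, 2 and 3 and 7100, 9529 and 6718 in those labelled wild type 1, 2 and 3. It rose by 1.30 ± 0.23 (log2, SE; limma, adjusted p = 0.0492). Every library labelled Otud1-/- stood above every library labelled wild type, and library 1 was the lowest under the Otud1-/- label. Myl9 (ENSMUSG00000067818.6, chr2:156775420-156781658, plus strand), the regulatory light chain that the kinase Mylk phosphorylates, read 4783, 8817 and 7074 under Otud1-/- and 2650, 3150 and 2715 under wild type, and rose by 1.24 ± 0.21 (limma, adjusted p = 0.0440).

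Actg2 and Acta2, the enteric and vascular smooth muscle actins, missed the threshold. Actg2 had 7806, 18502 and 11892 normalised reads under the Otud1-/- label and 4541, 4444 and 4296 under the wild type label, a change of 1.44 ± 0.28 (limma, adjusted p = 0.0676). Acta2 had 9363, 17626 and 13531 under Otud1-/- and 5822, 6929 and 6162 under wild type, a change of 1.06 ± 0.21 (limma, adjusted p = 0.0601). In both, the library labelled Otud1-/- 2 was the highest and library 1 the lowest of its label, at 2.37 times the reads for Actg2 and 1.88 times for Acta2, whereas the 3 wild type libraries lay close together. Myl6, the essential light chain that non-muscle cells use too, had 14948, 22179 and 18516 under Otud1-/- and 19894, 18309 and 20877 under wild type. Its change was -0.10 ± 0.16 (limma, adjusted p = 0.767), and its labels overlapped. The change turned to 0.11, 0.19 and 0.37 with scaling to total reads, to quantiles and to the epithelial markers. Relative to the median of all genes in each of these settings it was -0.11, 0.19 and -0.10. Per kb of exon, Actg2 was the most abundant of the 43 genes under Otud1-/- (8178 normalised reads per kb under Otud1-/- and 2843 under wild type) and Myl6 under wild type (5820 under Otud1-/- and 6179 under wild type). Acta2 had 6151 per kb under Otud1-/- and 2871 under wild type. Coding sequences of the actins are much alike, and how the authors counted reads that fit both is not given, so a small part of either count may belong to the other.

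Thin-filament proteins gave 2 called genes of 8 and no overlap between labels in 7. Tpm2 (ENSMUSG00000028464.16, chr4:43514711-43523765, minus strand), a tropomyosin that lies along the actin filament, had 7192, 12972 and 9354 normalised reads under the Otud1-/- label, against 3910, 3910 and 4190 under the wild type label. It rose by 1.26 ± 0.19 (limma, adjusted p = 0.0323), the smallest adjusted p of the 43 genes. The wild type libraries differed from each other by far less than the Otud1-/- libraries did. Cald1 (ENSMUSG00000029761.16, chr6:34598500-34775473, plus strand), caldesmon, which holds back myosin on actin, had 2852, 4153 and 3786 under Otud1-/- and 1669, 2236 and 1863 under wild type and rose by 0.90 ± 0.17 (limma, adjusted p = 0.0467).

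Lmod1, leiomodin, which starts actin filaments in smooth muscle, had 683, 1231 and 1031 normalised reads in the Otud1-/- libraries by label and 490, 478 and 455 in the wild type ones (change 1.01 ± 0.20, limma, adjusted p = 0.0551). Smoothelin, Smtn, had 2604, 4545 and 3438 under Otud1-/- and 1813, 2019 and 2027 under wild type (0.82 ± 0.19, limma, adjusted p = 0.0758), and 16.3% of its exon bases are shared with Gm11946 on the opposite strand, which had 587, 1011 and 821 under Otud1-/- and 297, 443 and 364 under wild type. Neither passed the threshold, and in both every Otud1-/- library lay above every wild type one. Calponin 1 (Cnn1) had a change of 1.15 and tropomyosin 1 (Tpm1) of 0.68, neither called by limma; DESeq2 called 6 of the 8 thin-filament genes, these 2 among them, and edgeR called Tpm2. Cnn2, the calponin that many non-muscle cells also make, had 885, 1347 and 1174 normalised reads under the Otud1-/- label and 1894, 1142 and 1193 under the wild type label. Its change was -0.29 ± 0.23 (limma, adjusted p = 0.517). With scaling to the epithelial markers it was 0.18, and -0.29 relative to the median of all genes in that scaling. The high value of wild type 1 was the highest of the 6. Tagln, transgelin, stood out for its low level: 67.4, 111 and 96.9 normalised reads under Otud1-/- and 62.2, 44.2 and 58.1 under wild type (0.72 ± 0.28, limma, adjusted p = 0.206). Other annotated genes overlap 67.9% of its exon bases, 62.4% by the antisense gene Gm48529 alone, which had 102, 204 and 191 under Otud1-/- and 163, 161 and 147 under wild type. The strand setting of the counting is not given in the sources used here, so the level of Tagln is uncertain, as is that of Pln, whose exon bases are overlapped to 64.7%.

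**Figure D2:**
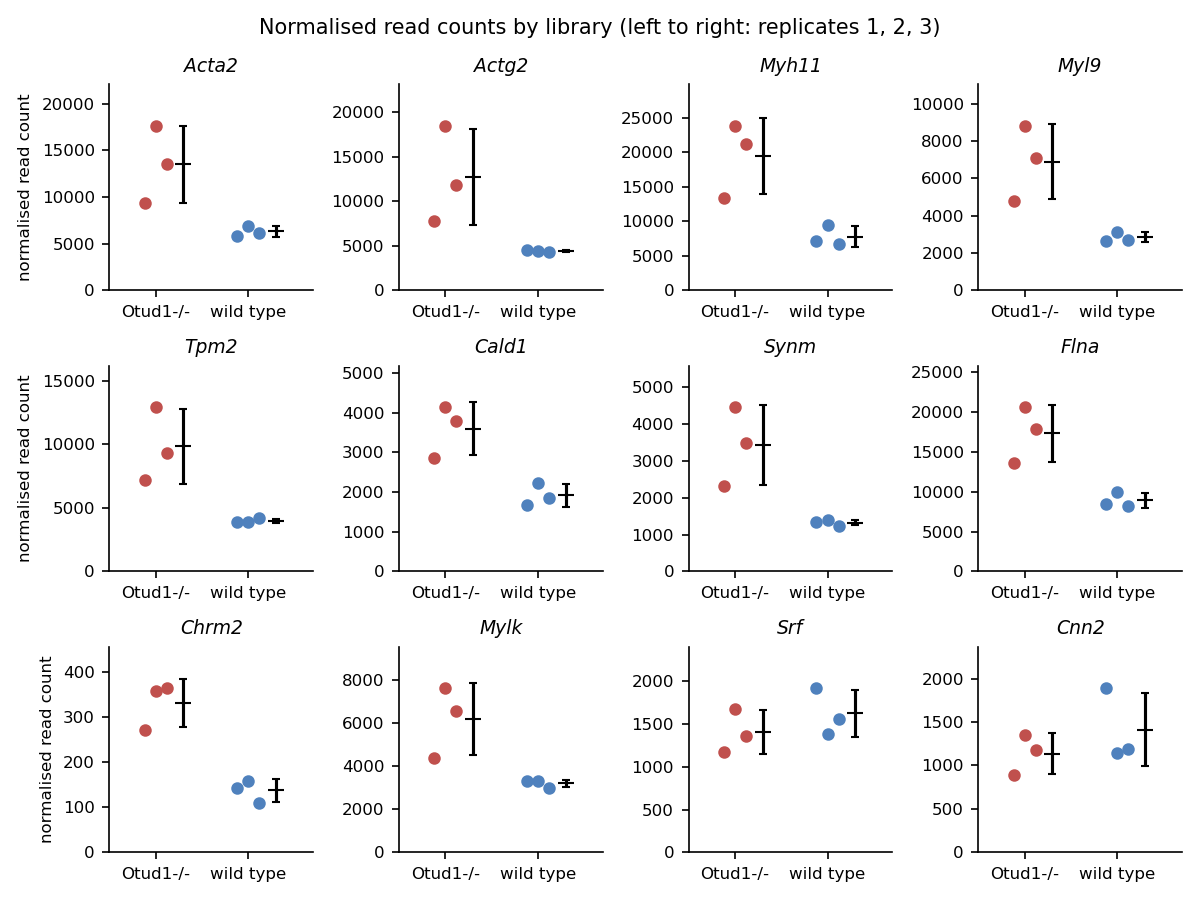
Normalised read count of 12 of the genes in each library, libraries labelled Otud1-/- left in red and wild type right in blue, replicates 1 to 3 from left to right, with mean ± SD (n = 3) as bars and every axis starting at 0. In the panels from Acta2 to Mylk the labels do not overlap and Otud1-/- 1 is the lowest of its 3 libraries, whereas Srf and Cnn2 overlap and are highest in wild type 1.

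The desmin network, dense bodies and adhesion plaques held 11 genes, 9 of them without overlap between the labels and 2 called. Synm (ENSMUSG00000030554.16, chr7:67730160-67759742, minus strand), synemin, which links desmin filaments to the membrane, had 2319, 4474 and 3492 normalised reads in the libraries labelled Otud1-/- and 1339, 1397 and 1242 in those labelled wild type. It rose by 1.32 ± 0.22 (limma, adjusted p = 0.0440). Flna (ENSMUSG00000031328.15, chrX:74223461-74249820, minus strand), filamin A, which crosslinks actin and anchors it to integrins, had 13557, 20686 and 17865 under Otud1-/- and 8458, 10029 and 8266 under wild type and rose by 0.95 ± 0.17 (limma, adjusted p = 0.0454). Its profile over the 6 libraries was close to that of the list as a whole.

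Desmin itself, Des, had 11173, 26632 and 16795 normalised reads under the Otud1-/- label and 8710, 6744 and 7675 under the wild type label, and its change of 1.16 ± 0.30 was not called (limma, adjusted p = 0.110). The spread was wide under Otud1-/-, where library 2 held 2.38 times the reads of library 1. Csrp1, a LIM protein of actin bundles, had 8904, 14616 and 11128 under Otud1-/- and 5742, 6277 and 6266 under wild type (0.89 ± 0.17, limma, adjusted p = 0.0532). The PDZ and LIM protein Pdlim7 had 2180, 1808 and 1407 under Otud1-/- and 821, 1004 and 1093 under wild type (0.87 ± 0.17, limma, adjusted p = 0.0551). Pdlim7 was the gene of this group that was highest in Otud1-/- 1 and not in 2 or 3. Synpo2, Pgm5, Pdlim3 and Nexn had changes of 1.12, 1.02, 0.94 and 0.88 that limma did not call; DESeq2 called 9 of the 11 genes, these 4 among them, and edgeR called Synm. Ldb3, a Z-line protein better known from striated muscle, had 0.33. Vinculin, Vcl, the actin anchor of adhesion plaques in many cell types, had 1074, 1279 and 1055 under Otud1-/- and 1119, 1167 and 1052 under wild type, a change of 0.03 ± 0.12 (limma, adjusted p = 0.933), and 25.5% of its exon bases are shared with Ap3m1 on the opposite strand.

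The 8 channels and proteins of the calcium store had positive changes with a median of 0.69, and limma called 0 of 8 (5 at an unadjusted p under 0.05; edgeR 0 with either scaling, DESeq2 3: Cacna1c, Kcnmb1 and Ryr2). Cacna1c, the pore of the L-type calcium channel that drives contraction, had 393, 453 and 514 normalised reads in the Otud1-/- libraries by label and 200, 344 and 236 in the wild type ones (0.83 ± 0.21, limma, adjusted p = 0.0919). Kcnmb1, the smooth muscle subunit that raises the calcium sensitivity of the BK potassium channel, had 157, 286 and 241 under Otud1-/- and 129, 132 and 120 under wild type (0.80 ± 0.24, limma, adjusted p = 0.124). Neither passed, and in both the labels did not overlap. Kcnma1, the pore of the same channel, had a change of 0.59, the ryanodine receptor Ryr2 of 1.10 and phospholamban, Pln, the brake of the calcium pump, of 0.88, all without overlap and none called by limma. Smaller values were those of the T-type channel Cacna1h (0.26) and the IP3 receptor Itpr1 (0.25). The ATP-gated channel P2rx1 had 16.2, 54.0 and 24.2 under Otud1-/- and 43.2, 24.5 and 14.3 under wild type, a change of 0.16 ± 0.53 (limma, adjusted p = 0.901). P2rx1 had 14 to 48 reads per library, and it changed sign with quantile scaling and without Otud1-/- 2 or wild type 3.

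Both muscarinic receptors separated the labels. Chrm2 (ENSMUSG00000045613.9, chr6:36388084-36528414, plus strand), the M2 receptor and the more abundant of the pair per kb, had 270, 358 and 364 normalised reads under the Otud1-/- label and 143, 159 and 109 under the wild type label. It rose by 1.27 ± 0.21 (limma, adjusted p = 0.0350), the second smallest adjusted p of the 43 genes. Chrm3, the M3 receptor that triggers contraction through IP3, had 40.1, 64.1 and 45.4 under Otud1-/- and 17.9, 8.46 and 15.3 under wild type. Its change of 1.80 ± 0.38 had the largest size among the 43 genes and was not called (limma, adjusted p = 0.0601). The precision of Chrm3 is limited by its 9 to 57 reads per library.

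In the kinase and cGMP group limma called 0 of 4 genes (2 at an unadjusted p under 0.05; edgeR 0 with either scaling, DESeq2 Mylk). Mylk, myosin light chain kinase, had 4383, 7653 and 6564 normalised reads in the libraries labelled Otud1-/- and 3306, 3315 and 3008 in those labelled wild type (0.91 ± 0.19, limma, adjusted p = 0.0621). It is the gene whose course over the libraries lay nearest to the median of the list. The genes of cGMP signalling had smaller or less certain values. The cGMP-dependent kinase Prkg1 had 22.2, 34.9 and 25.2 under Otud1-/- and 14.8, 16.9 and 11.2 under wild type (0.89 ± 0.36, limma, adjusted p = 0.219), the lowest level per kb of the 43 genes. Gucy1a1, a subunit of the nitric oxide receptor guanylate cyclase, had a change of 0.67, and Pde5a, which breaks cGMP down, of 0.21.

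The labels overlapped in all 3 transcription factors of the programme; limma, edgeR and DESeq2 called 0 of 3, and 0 of 3 had an unadjusted p under 0.05 in limma. Myocd, myocardin, the coactivator restricted to muscle, had 50.3, 23.6 and 34.3 normalised reads under the Otud1-/- label and 19.0, 32.9 and 16.3 under the wild type label (0.64 ± 0.40, limma, adjusted p = 0.412). Mkl2 had 1196, 856 and 833 under Otud1-/- and 696, 828 and 849 under wild type (0.27 ± 0.16, limma, adjusted p = 0.391). Both were highest in Otud1-/- 1, the library of its label in which most of the other genes were lowest. Srf had 1175, 1678 and 1355 under Otud1-/- and 1922, 1384 and 1556 under wild type, a change of -0.21 ± 0.16 (limma, adjusted p = 0.517). With scaling to the epithelial markers the change of Srf was 0.26, and -0.21 relative to the median of all genes in that scaling. The ratio of Myh11 to Srf was higher in every Otud1-/- library (log2 3.77 ± 0.24, against 2.26 ± 0.47 in wild type by label; SD, n = 3).

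The small heat shock proteins Hspb6, which relaxes smooth muscle when phosphorylated, and Hspb7 had overlapping labels, and limma called 0 of 2 (2 at an unadjusted p under 0.05; edgeR 0 with either scaling, DESeq2 Hspb6). Hspb6 had 188, 400 and 367 normalised reads under Otud1-/- and 162, 198 and 168 under wild type (0.78 ± 0.28, limma, adjusted p = 0.179). Hspb7 had 112, 272 and 210 under Otud1-/- and 142, 78.1 and 72.4 under wild type, a change of 0.99.

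How tightly the genes moved together was measured against a shared profile. Log2 values were centred on each gene's mean over the 6 libraries, and the median over the 43 genes gave the profile, which was 0.02, 0.77 and 0.55 in the libraries labelled Otud1-/- 1, 2 and 3 and -0.44, -0.33 and -0.52 in those labelled wild type 1, 2 and 3. The SD of the profile was 0.38 among the Otud1-/- libraries and 0.09 among the wild type libraries. It carried 64.5% of the sum of squares of all 43 genes. With each gene centred within each label instead, a median profile made anew from those values carried 42.9% of what was left. Differences between the labels made up 70.7% of the genes' sum of squares, and 32.9% of that of all genes tested. The library labelled Otud1-/- 2 was the highest of the 6 in 30 of 43 genes, beside 16.6% of all genes. Within the label the order library 2, then 3, then 1 was seen in 31 of 43 genes, beside 22.0% of all genes. The order was not particular to smooth muscle, as the summed epithelial markers had it too (468692, 363311 and 309336). Otud1-/- 1 was the highest library in 24.8% and the lowest in 24.6% of all genes, the largest such shares of the 6 libraries. Some Otud1-/- library was the highest in 41 genes and some wild type library the lowest in 40, of which 22 were lowest in wild type 3, 12 in wild type 1 and 6 in wild type 2.

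**Figure D3:**
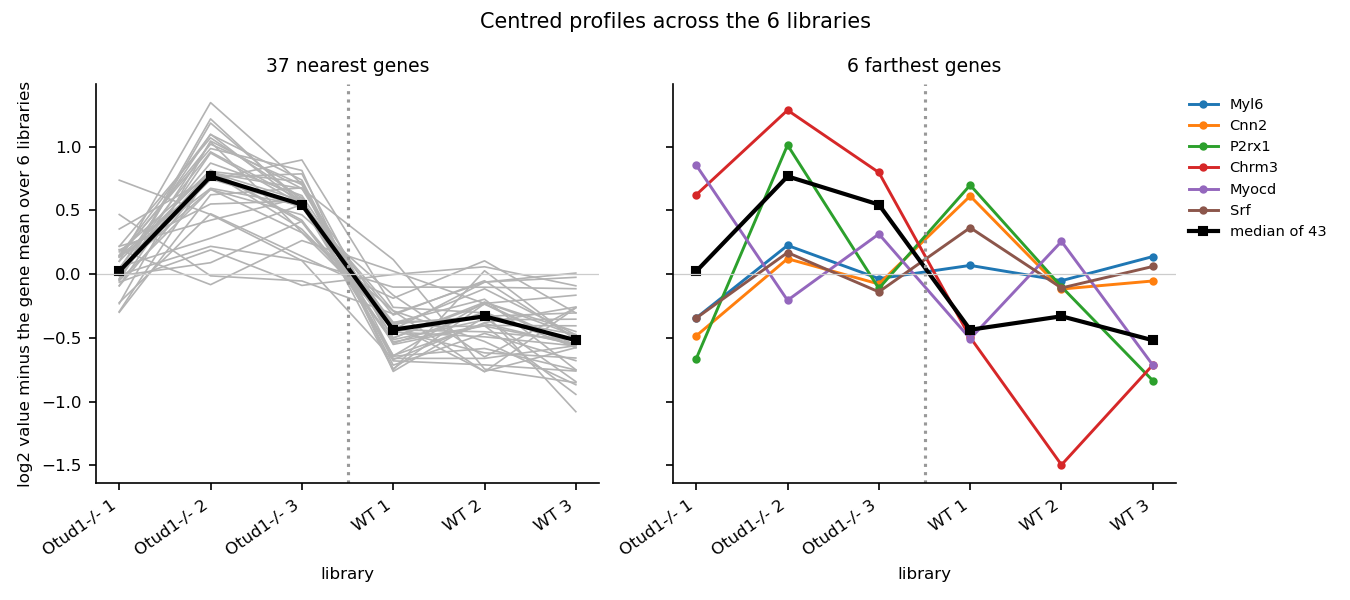
Log2 normalised read count of each gene minus its mean over the 6 libraries, for the 37 genes nearest to the shared profile in grey and the 6 farthest in colour, with the median of the 43 genes in black; libraries labelled Otud1-/- stand left of the dotted line and wild type right of it. The median peaks at 0.77 in Otud1-/- 2, while Cnn2, Srf, P2rx1 and, by less, Myl6 stand above their mean in wild type 1.

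The distance of a gene from the shared profile, the root mean square difference over the 6 libraries on the log2 scale, had a median of 0.23 and ran from 0.04 to 0.64. It was within 0.25 for 24 genes and within 0.5 for 37. The 6 nearest genes came from several parts of the machine: the kinase Mylk (0.04), the BK channel subunit Kcnmb1 (0.06), filamin A (0.07), leiomodin Lmod1 (0.09), Csrp1 (0.09) and smoothelin Smtn (0.10). These 6 differ in level from 54.4 normalised reads per kb under Otud1-/- and 30.3 under wild type in Kcnmb1 to 5905 under Otud1-/- and 3116 under wild type in Csrp1.

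The 6 farthest genes were Cnn2 (0.64), P2rx1 (0.63), Chrm3 (0.59), Myocd (0.59), Srf (0.58) and Myl6 (0.50). Chrm3 had a larger difference between the labels in the same direction, and the other 5 had smaller or opposite ones. Part of the distance lay within the labels. Otud1-/- 2 held 0.469 times the reads of Otud1-/- 1 in Myocd and 3.33 times in P2rx1. For P2rx1, Chrm3 and Myocd, which had few reads, read counting alone gives distances of 0.29, 0.32 and 0.29. For Cnn2, Srf and Myl6, which had many reads, it gives 0.04, 0.04 and 0.01. Des (0.26, counting part 0.01) and Actg2 (0.32, counting part 0.02) also exceeded their counting part. Further genes beyond 0.44 were Mkl2, Vcl and Itpr1. Distances below the counting part, as in Prkg1 (0.15, counting part 0.34) and Kcnmb1 (0.06, counting part 0.11), cannot be read as closer than other genes at that depth. Of the 6 genes with a CArG box in the matched windows, the median distance was 0.48, and of the 30 matched genes without one 0.22. This split was reported after its outcome was seen, and the difference was not tested.

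**Figure D4:**
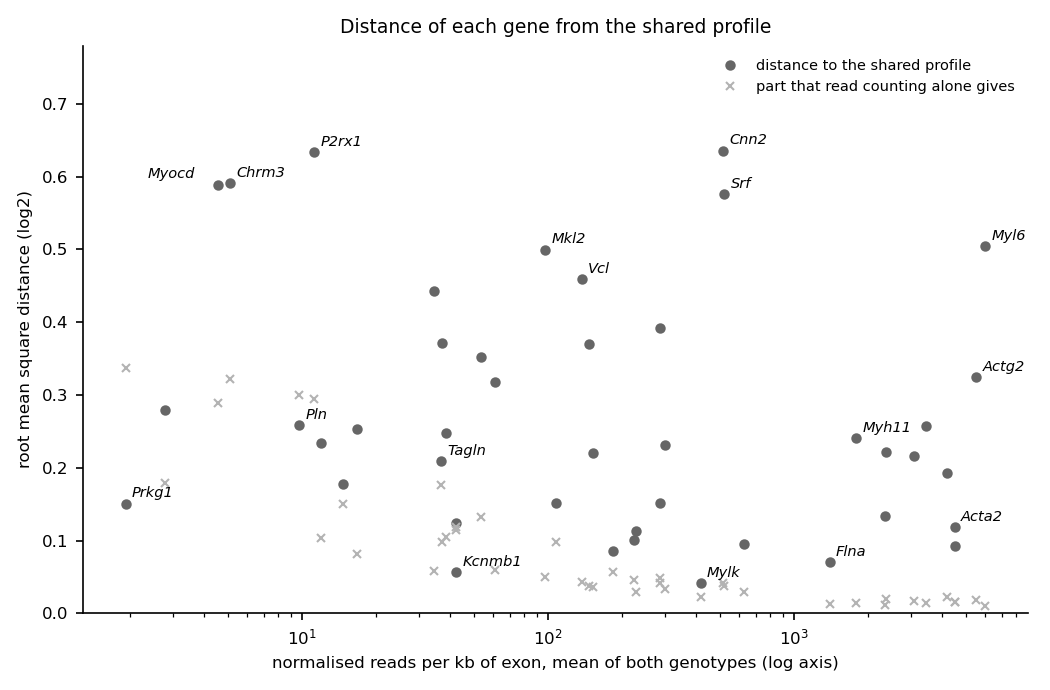
Distance of each of the 43 genes from the shared profile (root mean square, log2) against its level in normalised reads per kb of exon, mean of both labels, on a log axis; crosses give the distance that read counting alone would produce. Cnn2, Srf and Myl6 stand far above their crosses, while Prkg1 and Kcnmb1 lie below theirs.

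Related genes were compared as log2 ratios within each library, taken from normalised read counts plus 1. Scaling between libraries cancels in such a ratio, except for a small effect of the added 1 in genes with few reads. A permutation p under 0.1 is not possible with 3 against 3 libraries, and no test was made. In 5 of 11 pairs the labels did not overlap. Myl6 over Myl9 averaged 1.45 ± 0.17 in the libraries labelled Otud1-/- and 2.80 ± 0.22 in those labelled wild type (SD, n = 3 here and below). The ratio of Cnn2 to Cnn1 was -3.31 ± 0.32 under Otud1-/- and -1.87 ± 0.30 under wild type. In both pairs the ratio of the partner that non-muscle cells also express to the muscle form was lower under Otud1-/-.

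The other 3 separated pairs were of tropomyosins, smooth muscle actins and calcium channels. Tpm2 over Tpm1 was -0.96 ± 0.11 under the Otud1-/- label and -1.53 ± 0.04 under the wild type label. The enteric actin Actg2 over the vascular actin Acta2 was -0.13 ± 0.17 under Otud1-/- and -0.51 ± 0.14 under wild type. For the T-type channel Cacna1h over the L-type channel Cacna1c the ratio was 0.51 ± 0.29 under Otud1-/- and 1.08 ± 0.25 under wild type. Ratios overlapped for Kcnmb1 over Kcnma1, Chrm3 over Chrm2, Ryr2 over Itpr1, Hspb7 over Hspb6, Mkl2 over Myocd and Pdlim7 over Pdlim3. For Pdlim7 over Pdlim3, Otud1-/- 1 stood apart with 1.12, against -0.19 and -0.14 in libraries 2 and 3 of that label.

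**Figure D5:**
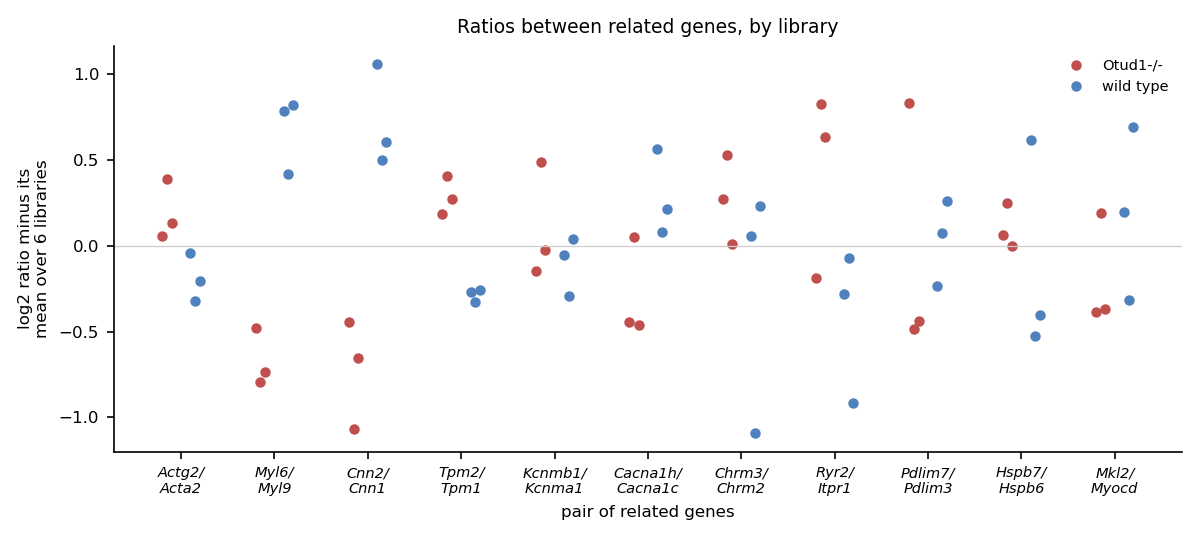
Log2 ratio of the normalised read counts of 11 pairs of related genes in each library, minus the mean of the 6 libraries, with libraries labelled Otud1-/- left in red and wild type right in blue. The labels separate for Actg2/Acta2, Myl6/Myl9, Cnn2/Cnn1, Tpm2/Tpm1 and Cacna1h/Cacna1c and overlap in the other pairs.

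Beyond the 43 genes, 66 other smooth muscle genes, grouped by role, were less uniform. By limma 2 of them were called, both higher. Svil, supervillin, which ties actin and myosin to the membrane, had 1113, 1272 and 1169 normalised reads under Otud1-/- and 561, 653 and 553 under wild type (1.01 ± 0.12, limma, adjusted p = 0.00980). Cavin1, a coat protein of caveolae, had 1922, 2348 and 1928 under Otud1-/- and 1045, 1067 and 1182 under wild type (0.91 ± 0.12, limma, adjusted p = 0.0169). In both every Otud1-/- library lay above every wild type one. Without wild type 1, 2 or 3 there were 0 calls among the 66, beside 35, 11 and 10 of all genes. At an unadjusted p under 0.05 (limma) were 24, 27 and 26 of the 66, beside 2849, 3572 and 3244 of all genes. Without Otud1-/- 1, 12 genes of the 66 were called, beside 334 of all genes. The change was positive in 49 of 66, with a median of 0.34; labels did not overlap in 26 genes that were higher, beside 13.0% of all genes, and in 6 that were lower, beside 13.3%.

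By role, medians were 0.79 for 8 genes of G protein signalling and the cGMP pathway, 0.51 for 7 of the dystrophin complex and caveolae, 0.39 for 15 of calcium handling, 0.31 for 16 of adhesion and 0.10 for 9 of transcription and splicing. The store-operated calcium entry pair Stim1 and Orai1 had -0.55 and -0.56 with the deposited scaling, with every library labelled Otud1-/- below every wild type one, and was not called by limma.

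Among the 11557 genes outside the list with a mean of at least 100 normalised reads, 139 (1.20%) lay as near to the shared profile as the median of the 43 genes, and the median distance was 0.55. The 10 nearest were Speg (0.06), Nkd2 (0.06), Mcam (0.08), Ppp1r12b (0.08), Marveld1 (0.08), Adcy5 (0.08), Myom1 (0.08), Tmem252 (0.09), Adam33 (0.09) and Nrp2 (0.09). Of these Mcam was called (0.82 ± 0.15, limma, adjusted p = 0.0492). The likeness is over 6 libraries that fall into 2 labels. The profile was made from the 43 genes themselves, which brings them nearer to it, so the 1.20% does not measure their tightness. The minimum of 100 was not applied to the 43 genes, of which 7 had a mean below it.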

How the data were processed

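RNA of distal colon was sequenced in 3 libraries labelled Otud1-/- and 3 labelled wild type; samples were grouped by titles and genotype labels. The deposited signal is a normalised read count per gene, made by the authors. Every value (100%) was a whole number of steps within a tolerance of 0.001 reads, and the steps were the reciprocals of median-of-ratios size factors. Per the submitters' processing notes the genome build was mm10, and no aligner, counter, strand setting or annotation release is stated there. Symbols, coordinates and exon lengths came from GENCODE vM21 (GRCm38), where 21317 IDs had a symbol and 57 did not. Genes at 1 or more in at least 3 libraries were tested with limma 3.58.1 (R 4.3.3; lmFit, eBayes with trend and robust) on log2(value + 1), two-sided, with Benjamini-Hochberg adjustment over all 21281 genes. This scale understates changes of low genes. edgeR 4.0.16 and DESeq2 1.42.0 on the recovered reads, other scalings, filters and pseudocounts, a replicate block and left-out libraries were alternatives. The fits were tested on simulated data. Reads carry no molecular identifiers, so depth sets only a lower limit of error. Libraries were compared with each other, and none differed by less than sampling noise. Values per library are given for called genes, those with the smallest p of each role, those nearest to and farthest from the shared profile and those of opposite sign; the others named beside them are accounted for in brief, and the values of Des, Csrp1, Pdlim7, Prkg1, Mkl2, Hspb7 and Tagln and the genes named from the 66 were chosen after their values were seen. One role group of the 66 genes is not reported here. The 43 genes and all lists were chosen with earlier results of these data known.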

Additional observations from a re-analysis of the deposited data

How the results depend on the processing

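Calls were sensitive to the processing. Directions held in every setting tried except for Myl6, Cnn2, Srf, Vcl and P2rx1. Cnn2, Srf and Myl6, the genes with a negative change as reported, are among these, so the direction of their departure depended on the setting. In each setting tried, every called gene of the 43 was higher under the Otud1-/- label. Their number, 7 as reported, was 7 with no filter, 2 with a filter at a mean of 5 or a pseudocount of 0.1 or 0.01, 15 with quantile normalisation, 23 with scaling to total reads, 30 with scaling to the epithelial markers, 21 with sample weights, 3 and 2 with edgeR (TMM and median-of-ratios), 26 with DESeq2, 0 with limma without trend and robust (29 at an unadjusted p under 0.05), 0 to 21 without single libraries and 24 without wild type 1 and Otud1-/- 1 together. Over all genes 202 were called, and in the same settings 122 with the filter, 118 and 110 with the pseudocounts, 153 with quantiles, 416 with total reads, 1357 with the epithelial markers, 564 with weights, 102 and 101 with edgeR, 1420 with DESeq2, 0 without trend and robust (3499 at an unadjusted p under 0.05), 10 to 351 without single libraries and 393 without the 2 libraries together. Of the 66 other genes, 2 as reported, 4 were called with quantiles, 14 with total reads, 29 with the epithelial markers, 12 with weights, 20 with DESeq2, 2 with either edgeR fit, 0 without trend and robust (25 at an unadjusted p under 0.05), 0 to 12 without single libraries and 12 without the 2 together.

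With the replicate number as a block, limma called 0 of the 43 (27 at an unadjusted p under 0.05), 0 of the 66 (27 likewise) and 18 of all genes (2968 likewise). Across genes, deviations of same-numbered libraries from the mean of their label had correlations of -0.26, -0.10 and -0.09. Libraries that share a number may still have been handled together, so these values do not settle whether the numbers pair them. Scaling to total reads and to the epithelial markers put the median of all genes at 0.22 and 0.47, against 0.02 as deposited, and the median of the 43 genes relative to it was 0.86 and 0.87. Without that correction the median of the 43 genes was 1.34 with the epithelial markers, against 0.88 as reported. The share of called genes that were lower was 70.3% as deposited, 60.1% with quantiles, 24.8% with total reads and 6.34% with the epithelial markers. The share of the sum of squares carried by the shared profile, 64.5%, was 72.2% with total reads, 79.4% with the epithelial markers, 71.2% without the 2 libraries together and 57.2% to 68.2% without single libraries. Changes that turned sign were those of Myl6 (quantiles 0.19, total reads 0.11, epithelial markers 0.37, the 2 libraries left out 0.0518, single libraries -0.24 to 0.0434), Cnn2 (epithelial markers 0.18, the 2 libraries 0.11), Srf (0.26 and 0.0393 in the same settings), Vcl (weights -0.0216, single libraries -0.0634 to 0.0757) and P2rx1 (quantiles -0.0193, single libraries -0.31 to 0.55). Relative to the median of all genes, total reads gave -0.11 for Myl6. The epithelial markers gave -0.10 for Myl6, -0.29 for Cnn2 and -0.21 for Srf on that measure. The causes were not tested. Depth limits Chrm3, Myocd, P2rx1, Prkg1 and Pln, which had under 60 reads in every library.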
